A study of Mus musculus with 6 samples.

Results

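The 10 genes described here encode enzymes and a carrier protein that make phosphatidylglycerol and cardiolipin or act next to those steps. They are Ptpmt1, Lpgat1, Pgs1, Crls1, Tamm41, Lclat1, Prelid1, Cds1, Cds2 and Pisd. They were taken by name from the 19938 genes that the array table names with 1 symbol. The set was chosen by the Tamoxifen minus Vehicle differences of Ptpmt1 and Lpgat1 in these same arrays, to which the other genes of the pathway were added. The difference between treatments is therefore given for the 10 genes as a description, with no p-value, and counts of them past a threshold are part of that description. Of the 10, 9 passed a filter on dim genes, a mean log2 intensity of 6.70 that marks the 30th percentile of genes, and Cds1 lay below it.

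Cardiolipin is the signature phospholipid of the inner mitochondrial membrane, where it holds respiratory complexes together and anchors cytochrome c. Its synthesis starts from phosphatidic acid, which Prelid1 carries across the intermembrane space. Cds1 and Cds2 in the endoplasmic reticulum and Tamm41 in mitochondria turn phosphatidic acid into CDP-diacylglycerol. Pgs1 makes phosphatidylglycerol phosphate from it, the phosphatase Ptpmt1 removes the phosphate to give phosphatidylglycerol, and Crls1 joins phosphatidylglycerol to another CDP-diacylglycerol to give cardiolipin. Lpgat1 returns an acyl chain to lysophosphatidylglycerol, Lclat1 does the same for lysocardiolipin, and Pisd makes phosphatidylethanolamine in the same membrane.

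The question of the study was what deletion of Zfx, a zinc finger transcription factor, does to gene expression in T-ALL, an acute leukemia of immature T cells, when it is driven by Notch. The 3 leukemias, lines 14843, 14844 and 14846, came from separate retroviral transductions of active intracellular Notch into mouse blood progenitors. All of the cells, Vehicle included, thus carried active Notch, a Cre-ER transgene that tamoxifen switches on and a loxP-flanked Zfx allele (Zfx fl/y). Each line was passed to sublethally irradiated secondary recipients, which from day 10 received Vehicle (genotype label ZFX flox) or 5 mg of Tamoxifen a day by gavage for 3 days (label ZFX null). Cells positive for GFP were collected by sorting, 48 h past the final dose, and each line gave 1 array per treatment, so each group held 3 arrays. Age and strain of the mice, and which promoter drives Cre, are not given by the sources used here. Every Tamoxifen array came from cells with both Cre-ER and the floxed allele, so the drug, Cre activity and loss of Zfx cannot be told apart.

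The probe set of Zfx, the targeted gene, did not pass the test. It read 10.98, 10.90 and 10.72 log2 intensity in the Vehicle arrays of lines 14843, 14844 and 14846, and 10.96, 10.98 and 10.86 in the Tamoxifen arrays. Tamoxifen minus Vehicle was 0.07 ± 0.06 (SE; limma adjusted p = 0.48). Where its probes lie relative to the deleted part is not stated in the sources used here, so the labels are not checked by it. Of 13 tested T cell and leukemia markers (Lck is not named in the annotation) 0 were called by limma and 1 had an unadjusted p under 0.05, and their mean per array was 12.34 to 12.45 in Vehicle and 12.23 to 12.32 in Tamoxifen, so that all 3 Tamoxifen arrays were lower. Of 18 tested markers of erythroid, neutrophil, monocyte and B cells 0 were called, and 2 had an unadjusted p under 0.05. The 4 tested monocyte markers of 8 had array means of 8.28 to 8.32 in Vehicle and 8.38 to 8.47 in Tamoxifen, and all 3 Tamoxifen arrays were higher. These 4 did not move together. Lyz2 and Itgam differed by 0.24 ± 0.08 and 0.29 ± 0.09 (SE), C1qa by 0.06 ± 0.06 and Cd68 by -0.09 ± 0.08. Lyz2 and Itgam also differed between lines, with adjusted p of 0.036 and 0.020 by limma's moderated F test. Array means of the erythroid, neutrophil and B cell markers overlapped between treatments. The part of the T cell and monocyte lists in the results below was not tested.

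Before the values, the sequences just upstream of 4 of the genes are shown. They were picked because Ptpmt1 and Lpgat1 were low in the same arrays, while Pgs1 and Crls1 fell far less, by -0.09 and -0.20 (log2). Pgs1 and Crls1 encode the steps before and after Ptpmt1. The sequences are the 250 bases before an annotated transcript start, 5′ to 3′ on the gene's strand, from RefSeq on the build GRCm38.p6. That table holds 13 such windows for 9 of the 10 genes. Sites bound by Zfx are known for the letters AGGCCT, which read the same on both strands. Capitals mark AGGCC or its reverse complement GGCCT, each of which lies within that motif. The window of Ptpmt1 is chr2:90918051-90918300 on the minus strand, that of Lpgat1 chr1:191717774-191718023, that of Pgs1 chr11:117986607-117986856 and that of Crls1 chr2:132846416-132846665, the last 3 on the plus strand.
Ptpmt1: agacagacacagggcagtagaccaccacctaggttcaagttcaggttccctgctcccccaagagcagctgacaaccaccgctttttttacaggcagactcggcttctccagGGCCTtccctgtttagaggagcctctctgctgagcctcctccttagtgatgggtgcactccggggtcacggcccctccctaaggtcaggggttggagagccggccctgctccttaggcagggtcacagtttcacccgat
Lpgat1: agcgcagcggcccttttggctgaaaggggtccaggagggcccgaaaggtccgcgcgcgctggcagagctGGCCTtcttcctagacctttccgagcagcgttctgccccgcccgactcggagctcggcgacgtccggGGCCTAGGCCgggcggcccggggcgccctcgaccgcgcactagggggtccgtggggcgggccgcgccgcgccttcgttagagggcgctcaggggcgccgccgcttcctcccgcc
Pgs1: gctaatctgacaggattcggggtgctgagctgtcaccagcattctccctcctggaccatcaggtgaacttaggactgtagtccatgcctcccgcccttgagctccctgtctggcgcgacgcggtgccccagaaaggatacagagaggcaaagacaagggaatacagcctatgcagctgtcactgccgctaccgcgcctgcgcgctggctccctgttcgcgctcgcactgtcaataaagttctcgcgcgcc
Crls1: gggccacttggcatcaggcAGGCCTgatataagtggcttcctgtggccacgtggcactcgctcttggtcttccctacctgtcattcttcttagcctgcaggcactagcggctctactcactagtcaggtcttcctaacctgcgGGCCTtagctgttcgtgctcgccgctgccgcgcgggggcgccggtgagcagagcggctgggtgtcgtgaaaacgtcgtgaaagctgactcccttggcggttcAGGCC

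The whole motif AGGCCT occurred in 1 of the 13 windows, that of Crls1 shown above, against 8.70% of the 32851 windows of all genes. AGGCC or GGCCT, counted with overlaps, occurred once in Ptpmt1, 3 times in each of the 2 windows of Lpgat1, 4 times in the window of Crls1 shown and 0 times in Pgs1. At least 1 match was found in 8 of the 13 windows, against 44.5% of all windows. With a match in any window of a gene counted, 6 of the 9 genes had one. That share over all genes was not counted. The windows of Ptpmt1 and Lpgat1 also differed in composition. Ptpmt1 had 6 CG pairs, the median of all windows, and the first window of Lpgat1 had 35, a count reached or passed by 2.97% of windows. A match describes these letters alone, and binding was not measured here.

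Ptpmt1 and Lpgat1 were more than 4-fold lower in the arrays labelled Tamoxifen, and the other 7 tested genes of the pathway differed by -0.20 to 0.25 on the log2 scale. Each of these 2 decreases rests on 1 probe set, since among the 10 genes only Prelid1 had several. Averaging probe sets therefore left both differences as they were. In the fit over all genes (limma, line as a block, adjusted p under 0.05), 2 of the 9 were past the threshold, both lower and 0 higher, namely Ptpmt1 and Lpgat1. Without line 14844 the count was 1, beside 70 over all tested genes in that fit. Lpgat1, no longer called there, still differed by -2.23. The fit with all lines called 6.23% of all 13956 tested genes, 4.93% of them lower and 1.3% higher. Since the genes were chosen with this comparison in view, nothing is read from the counts of 2 and 1. The median difference was -0.09 over the 9 genes and 0.03 over all tested genes. Vehicle and Tamoxifen values did not overlap for 6 of the 9 genes and for 23.7% of all tested genes. In sorted bulk cells, fewer cells that express a gene and less RNA per cell cannot be told apart.

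**Figure D1:**
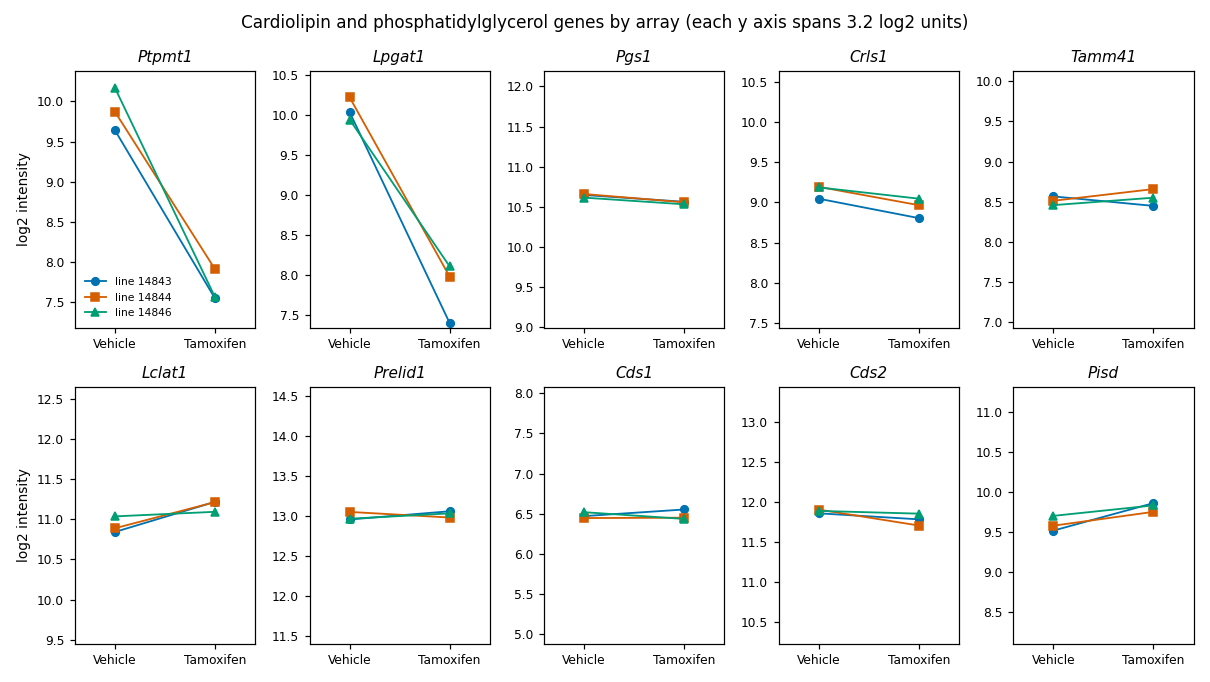
Log2 intensity of the 10 genes in each array, with 1 panel per gene, Vehicle on the left and Tamoxifen on the right, and a line joining the 2 arrays of each leukemia line (circles 14843, squares 14844, triangles 14846). Every panel spans the same 3.2 log2 units. Ptpmt1 goes from 9.64 to 10.17 in Vehicle to 7.54 to 7.91 in Tamoxifen and Lpgat1 from 9.94 to 10.22 to 7.40 to 8.11, and the other 8 panels are close to flat.

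Ptpmt1, the phosphatidylglycerol phosphate phosphatase, had intensities of 798, 936 and 1151 in the Vehicle arrays of lines 14843, 14844 and 14846. In the Tamoxifen arrays the intensities were 187, 240 and 189. Every Tamoxifen array was therefore below every Vehicle array, and the line with the highest Vehicle value, 14846, had one of the lowest Tamoxifen values. The level that remained in Tamoxifen was 23.4%, 25.7% and 16.4% of the Vehicle level of the same line. On the log2 scale the mean was 9.89 ± 0.26 in Vehicle and 7.67 ± 0.21 in Tamoxifen (SD, n = 3 each), a difference of -2.22 ± 0.13 (SE), or 4.66-fold lower. Ordered from the most negative difference, Ptpmt1 was at rank 3 of the 13956 tested genes, and at ranks 7, 4 and 2 within lines 14843, 14844 and 14846.

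Lpgat1, the acyltransferase that remakes phosphatidylglycerol from its lyso form, had intensities of 1047, 1189.8 and 982 in Vehicle. In Tamoxifen they were 169, 253 and 276, in the same order of lines. Here too the groups were far apart, but the order of the lines was another, with line 14843 the lowest in Tamoxifen and line 14846 the highest. The level left was 16.2%, 21.3% and 28.1% of Vehicle. The log2 mean was 10.06 ± 0.14 in Vehicle and 7.83 ± 0.38 in Tamoxifen (SD, n = 3 each), a difference of -2.23 ± 0.15 (SE), or 4.69-fold lower. Lpgat1 was at rank 2 of the tested genes over all lines, and at ranks 2, 2 and 8 within them. The within-line differences of Ptpmt1 and Lpgat1 thus ran in different orders, from -1.96 in line 14844 to -2.61 in line 14846 for Ptpmt1, and from -1.83 in line 14846 to -2.63 in line 14843 for Lpgat1. With 1 array per line and treatment, whether the lines differ in these decreases was not tested.

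The genes that make CDP-diacylglycerol lay close to their Vehicle levels. Cds2, an enzyme of the endoplasmic reticulum, read 11.86, 11.91 and 11.89 log2 intensity in Vehicle and 11.78, 11.71 and 11.86 in Tamoxifen. Its difference was -0.10 ± 0.06 (SE), lower in each of the 3 lines, with line 14844 showing the widest gap, -0.20. Without that line the difference was -0.05. Its paralog Cds1 was dim, at 6.48 ± 0.04 in Vehicle and 6.48 ± 0.06 in Tamoxifen (SD, n = 3 each), below the filter in all 6 arrays. Tamm41, the mitochondrial enzyme for the same reaction, read 8.57, 8.51 and 8.46 in Vehicle and 8.45, 8.66 and 8.55 in Tamoxifen. The groups overlapped, and Tamm41 was lower with Tamoxifen in line 14843 and higher in the other 2, with a difference of 0.04 ± 0.07 that turned to -0.013 without line 14844.

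Pgs1 and Crls1, which encode the enzymes on either side of Ptpmt1 in the pathway, were slightly lower in each of the 3 lines. Pgs1 read 10.65, 10.66 and 10.61 in Vehicle and 10.56, 10.56 and 10.53 in Tamoxifen. These groups did not overlap, yet the difference was -0.09 ± 0.05 (SE), and the Tamoxifen arrays kept 93.1% to 94.4% of the Vehicle level. Crls1, cardiolipin synthase, read 9.05, 9.19 and 9.19 in Vehicle and 8.81, 8.97 and 9.05 in Tamoxifen. Its highest Tamoxifen array, of line 14846, reached the lowest Vehicle array, of line 14843. The difference of Crls1 was -0.20 ± 0.05, with 84.6% to 90.7% of the Vehicle level left.

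Lclat1 and Pisd were slightly higher in each of the 3 lines. Lclat1, the lysocardiolipin acyltransferase, read 10.84, 10.89 and 11.04 in Vehicle and 11.22, 11.21 and 11.09 in Tamoxifen, a difference of 0.25 ± 0.08 (SE). The groups did not overlap, and lines 14843 and 14844 differed by 0.37 and 0.33 while line 14846 differed by 0.06. Pisd, phosphatidylserine decarboxylase, read 9.52, 9.58 and 9.70 in Vehicle and 9.86, 9.75 and 9.83 in Tamoxifen, a difference of 0.22 ± 0.06. Its groups did not overlap either, and line 14843 had both the lowest Vehicle and the highest Tamoxifen value. Prelid1, the carrier of phosphatidic acid, read 12.99 ± 0.05 in Vehicle and 13.03 ± 0.04 in Tamoxifen (SD, n = 3 each). Its difference was 0.03 ± 0.06, which turned to -0.0017 without line 14843, and another probe set of the same gene gave 0.07. Line 14844 was lower with Tamoxifen and the other 2 lines higher.

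**Figure D2:**
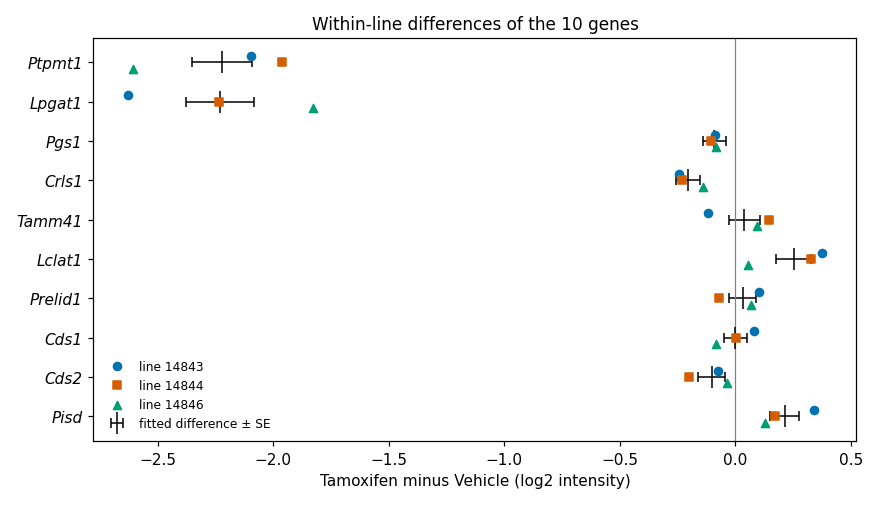
Tamoxifen minus Vehicle in log2 intensity for each of the 10 genes, as 1 point per leukemia line (circles 14843, squares 14844, triangles 14846) and the fitted difference with its SE (black bar). Ptpmt1 at -2.22 and Lpgat1 at -2.23 lie apart from the others, which fall between -0.20 and 0.25, and line 14846 has the widest decrease in Ptpmt1 and the smallest in Lpgat1.

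The comparison between leukemia lines is independent of the one between treatments, and it was made for the 9 tested genes. By limma's moderated F test of line, adjusted over all tested genes, 0 of the 9 genes were called, and 0 had an unadjusted p under 0.05. The adjusted test called 3.11% of all tested genes. At that share 0 of 9 is a usual count, and nothing about the pathway is read from it. The share of all genes with an unadjusted p under 0.05 in this test was not counted, so the unadjusted count of 0 cannot be judged. Adjusted p-values of the 9 genes ran from 0.27 for Crls1 to 0.98 for Prelid1. Averaged over both treatments, the lines spanned 0.02 log2 units for Prelid1, 0.30 for Ptpmt1 and 0.38 for Lpgat1, the widest span. The count was also 0 with each line left out in turn, without the filter, after centring, with averaged probe sets and with trend and robust eBayes.

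Genes next to Ptpmt1 and Lpgat1 on the chromosome were measured to see whether low values extended beyond the gene itself. Kbtbd4, which encodes a substrate adaptor of a ubiquitin ligase, is the protein-coding gene on one side of Ptpmt1 in the RefSeq table and lies on the opposite strand. It read 9.63, 9.80 and 9.67 in Vehicle and 9.53, 9.65 and 9.81 in Tamoxifen. The groups overlapped, at a difference of -0.04 ± 0.07 (SE; limma adjusted p = 0.80). Celf1, an RNA-binding protein on the other side, differed by -0.01 ± 0.05, with a limma adjusted p of 0.93. Both changed sign when 1 line was left out, Kbtbd4 to 0.02 without line 14844 and Celf1 to 0.02 without line 14843, so they have no settled direction. Beside Lpgat1, the Integrator subunit Ints7 differed by 0.06 ± 0.05, and the mitotic kinase Nek2 by 0.21 ± 0.05, higher in 3 of 3 lines but with a limma adjusted p of 0.074. Of the 20 neighbours of the 10 genes 16 were tested, and 0 were called by limma, against 6.23% of all tested genes. An unadjusted p under 0.05 was found for 6 of the 16 and for 3328 of the 13956 tested genes. Their differences ran from -0.26 to 0.22, with a median of 0.02. When arrays were centred on their median intensity, 1 of the 16 passed, Vgll4 beside Tamm41, which was named after its value was seen.

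**Figure D3:**
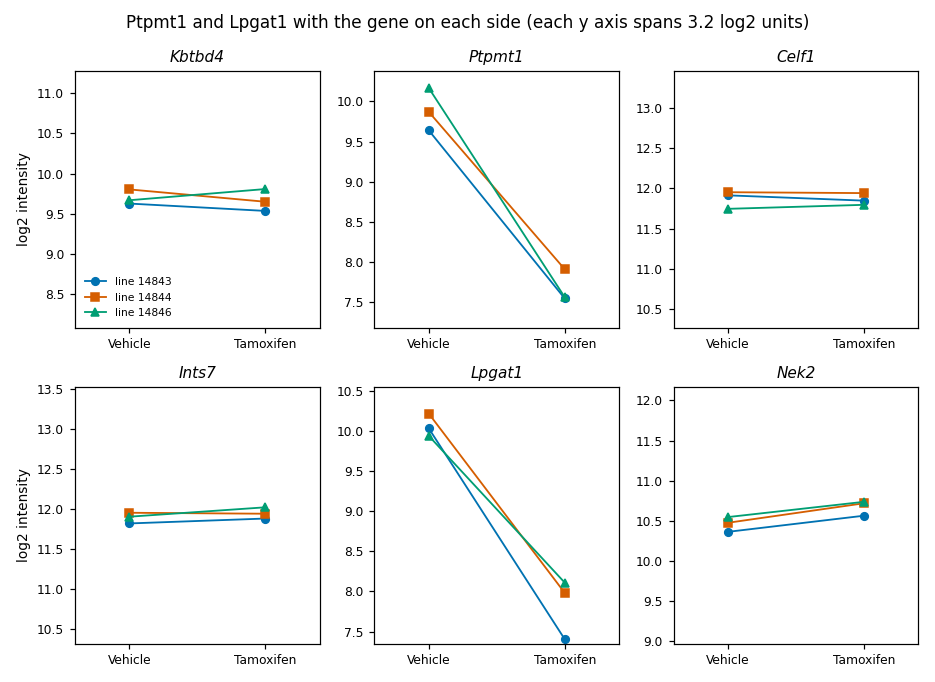
Log2 intensity of Ptpmt1 (upper middle) and Lpgat1 (lower middle) with the neighbouring protein-coding gene on each side, Vehicle and Tamoxifen joined within each leukemia line (circles 14843, squares 14844, triangles 14846). Every panel spans 3.2 log2 units. The fitted differences of the neighbours are -0.04 for Kbtbd4, -0.01 for Celf1, 0.06 for Ints7 and 0.21 for Nek2, against -2.22 and -2.23 for the genes between them.

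Across the 6 arrays, log2 intensities of Ptpmt1 and Lpgat1 correlated at a Pearson's r of 0.97. The arrays share the difference between treatments, so the value describes that difference. The 3 tested genes with the highest r to Ptpmt1 were Cul4a, a ubiquitin ligase scaffold, at 0.997, Sec16a, of endoplasmic reticulum exit sites, at 0.996, and Dis3l2, an RNA nuclease, at 0.995. Their differences between treatments were smaller than that of Ptpmt1, at -0.59 ± 0.05, -0.23 ± 0.05 and -0.34 ± 0.06 (SE). Those most like Lpgat1 were the zinc finger gene Zfp398, the superoxide dismutase Sod1 and the zinc finger gene Zfp251, at an r of 0.998, 0.997 and 0.996. They differed by -0.62 ± 0.06, -0.38 ± 0.05 and -0.28 ± 0.05. All 6 were picked from the tested genes for this likeness, so it is no separate observation.

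Outside the 10 genes, 63 others that supply, remodel or consume these lipids or make other phospholipids were followed in 5 lists, and 55 of them were tested. In arrays labelled Tamoxifen 7 fell, 1 rose and 47 did not pass the limma adjusted p of 0.05. The 8 called genes are 14.5% of the 55, beside 6.23% of all tested genes. The lists were drawn up with earlier results of these data known, so nothing is read from the higher share, which was not tested. The median difference of the 55 was -0.05, against 0.03 over all tested genes. Fewer calls were made when a line was left out: without line 14844 0 of the 8 passed, without line 14843 4 and without line 14846 5. Over all tested genes those fits called 70, 498 and 669, against 870 with all lines. The differences of the 8 genes kept their direction in each of these fits. Without line 14844 that of Pnpla8 was -0.88 and that of Lpcat1 -0.81. Without line as a block 3 passed, Pnpla8, Agpat3 and Lpcat1.

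Cardiolipin remodelling and phospholipid traffic had 1 called gene of 13. Pnpla8, a calcium-independent phospholipase of mitochondria and peroxisomes, read 8.89, 8.72 and 8.53 in Vehicle and 7.81, 7.99 and 7.86 in Tamoxifen. All 3 Tamoxifen arrays were below the Vehicle arrays, a decrease of 1.78-fold. On the log2 scale this was -0.83 ± 0.09 (SE), and the limma adjusted p was 0.012 (0.085 without line 14844). Tafazzin, the transacylase that remodels cardiolipin, differed by -0.22 ± 0.07 and did not pass, with a limma adjusted p of 0.15, and was named after its value was seen. Other genes of the list went the other way without passing. Prelid2, Prelid3b and Hadha were higher in each of the 3 lines, by 0.63 ± 0.19, 0.19 ± 0.05 and 0.17 ± 0.05. Their limma adjusted p-values were 0.12, 0.10 and 0.12, and they too were named after their values were seen. The median of the list was -0.02.

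Glycerol phosphate and phosphatidic acid supply had 2 called genes of 14, both lower, with a list median of -0.05. Lpin2, a phosphatidic acid phosphatase that draws the precursor toward diacylglycerol, read 9.89, 9.95 and 10.22 in Vehicle and 9.42, 9.47 and 9.62 in Tamoxifen. It fell 1.43-fold (log2 difference -0.51 ± 0.06, SE). Its limma adjusted p was 0.011, and the call ended without the block, at 0.071, and without line 14844, at 0.091. Agpat3, an acyltransferase that makes phosphatidic acid, read 11.38, 11.40 and 11.52 in Vehicle and 10.97, 11.09 and 10.94 in Tamoxifen. It fell 1.35-fold, with a limma adjusted p of 0.028, and lost the call whichever line was left out, at 0.056 to 0.11. In both genes the groups did not overlap.

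The synthesis of other head groups had 2 called genes of 10, in opposite directions and both of phosphatidylcholine synthesis, with a list median of -0.02. Chka, choline kinase alpha, read 9.23, 9.47 and 9.48 in Vehicle and 8.73, 9.20 and 9.20 in Tamoxifen. The log2 difference came to -0.35 ± 0.07 (SE; limma adjusted p = 0.045), and 6 of the 8 other settings ended the call, at 0.052 to 0.31. Pcyt1a, the enzyme that sets the rate of this pathway, read 6.71, 6.88 and 6.75 in Vehicle and 7.09, 7.31 and 7.20 in Tamoxifen. It rose 1.34-fold, and its limma adjusted p of 0.015 became 0.056 without the block and 0.12 without line 14844.

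In the list headed lysophospholipid acyltransferases, Lpcat1 was the 1 gene called of 9 tested. Lpcat1, which remakes phosphatidylcholine from its lyso form, read 10.19, 9.95 and 9.85 in Vehicle and 9.33, 9.41 and 9.09 in Tamoxifen. It fell 1.65-fold (log2 difference -0.72 ± 0.08, SE), at a limma adjusted p of 0.011 (0.0502 without line 14844), while the median of the list was -0.01. The list headed phosphatidylglycerol and lysophosphatidylglycerol use had 2 called of 9, both lower, with a list median of -0.20. Which lipids these enzymes act on was not measured. Pla2g15, a lysosomal phospholipase, read 8.59, 8.60 and 8.85 in Vehicle and 8.24, 8.33 and 8.46 in Tamoxifen, a difference of -0.34 ± 0.05 with a limma adjusted p of 0.028. Gde1, a glycerophosphodiester phosphodiesterase, read 10.35, 10.46 and 10.57 in Vehicle and 9.65, 10.06 and 10.23 in Tamoxifen, a difference of -0.48 ± 0.08 with a limma adjusted p of 0.035. Without the block neither passed, at 0.15 and 0.20, and both also failed without line 14843 or 14844, Pla2g15 without line 14846 as well, at 0.057 to 0.15.

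**Figure D4:**
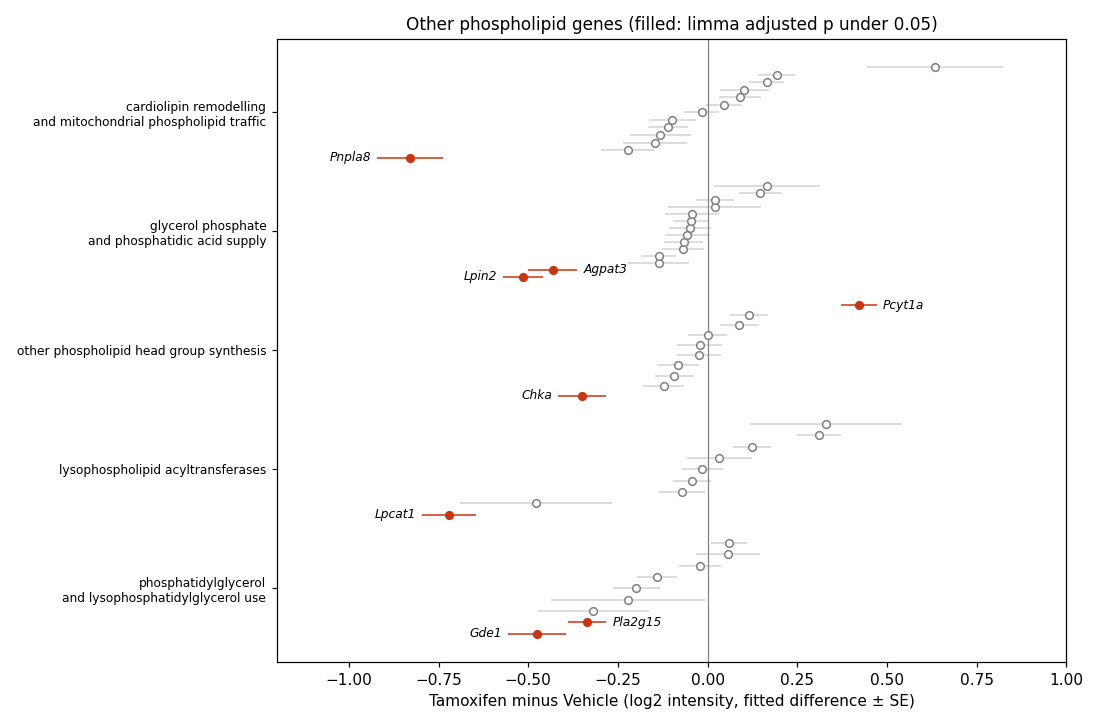
Tamoxifen minus Vehicle in log2 intensity, with SE, for the 55 tested genes in 5 lists around phosphatidylglycerol and cardiolipin. Filled points are the 8 genes past a limma adjusted p of 0.05, from -0.83 for Pnpla8 to 0.42 for Pcyt1a, and open points the 47 others.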

How the data were processed

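Total RNA (Trizol extraction, Ambion WT labelling, biotin) of sorted leukemia cells was measured on 6 one-colour Affymetrix arrays, per the labels' protocols. The deposited values are linear probe set intensities. The authors used RMA in Affymetrix Expression Console 1.1, as the submitters' processing notes record. RMA equalises intensity distributions across arrays and so removes differences in overall signal. Medians lay between 202 and 208. Arrays have no read depth, and their number limits precision.

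The platform annotation gave 1 symbol to 21789 of 35556 probe sets, several to 1621 and none to 12146. For genes with several probe sets the one with the highest mean was used. The log2 of each intensity was taken, and the 13956 genes at or above the 30th percentile of the mean (6.70) were fitted with limma 3.58.1 in R 4.3.3 (lmFit, eBayes, default arguments), with line as a block and treatment as terms. Two-sided p-values were adjusted over all tested genes by Benjamini-Hochberg, with 0.05 as the threshold. The pairing comes from the series design, which gives cells of each line to both treatments. Deviations from group means correlated at 0.64, 0.68 and 0.68 within lines. The fit was tested on simulated data with known changes. Alternatives were no block, no filter, arrays centred on their median, averaged probe sets, eBayes with trend and robust settings, and each line left out in turn.

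The 10 genes were chosen with earlier results of these data known, and so were the lists and the alternatives. Genes named beyond the 10 are called members of the 5 lists (up to 4 each), neighbours of Ptpmt1 and Lpgat1 (and called neighbours of the others) and, for each of those 2, the 3 genes of highest Pearson's r. Neighbours are the adjacent protein-coding genes in the RefSeq table of GRCm38.p6. Tafazzin was matched by its Entrez identifier. Of the 63 other genes, 5 were too dim, 1 had only a probe set of several genes and 2 are not named in the annotation.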

Additional observations from a re-analysis of the deposited data

Results flagged for a closer look

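Among the 10 genes, Zfx, the called phospholipid genes and neighbours of Ptpmt1 and Lpgat1, 7 differed in opposite directions in different leukemia lines. Of the 10 genes 3 did so, including Cds1, which was below the filter and not tested. Each line had 1 array per treatment, so these differences were not tested, and 51.2% of all tested genes had within-line differences of both signs. In log2 intensity, Tamoxifen minus Vehicle was -0.12 in line 14843 and 0.15 in line 14844 for Tamm41. For Prelid1 it was -0.071 in line 14844 and 0.10 in line 14843, and for Cds1 -0.084 in line 14846 and 0.083 in line 14843. Zfx gave -0.015 in line 14843 and 0.15 in line 14846. Of the neighbouring genes, Kbtbd4 gave -0.15 in line 14844 and 0.14 in line 14846, Celf1 -0.066 in line 14843 and 0.050 in line 14846, and Ints7 -0.012 in line 14844 and 0.12 in line 14846.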

How the results depend on the processing

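Without line as a replicate block, 275 genes were lower and 20 higher over all tested genes, and 3 lower and 0 higher among the other phospholipid genes. With arrays centred on their median 1 neighbouring gene was lower, against 0. Leaving out each line in turn gave 67 to 500 lower and 3 to 169 higher genes over all tested genes, 1 to 2 lower among the 10 genes, 0 to 4 lower and 0 to 1 higher among the other phospholipid genes, and 193 to 455 genes that differed between lines. Each such fit has fewer arrays and residual degrees of freedom, and the lowest counts were without line 14844. Leaving out a line gave -0.12 to 0.024 for Kbtbd4, above 0 without line 14844, and -0.038 to 0.020 for Celf1, above 0 without line 14843, and the cause was not tested. Tamm41 ran from -0.013 to 0.12 and Prelid1 from -0.0017 to 0.085, so these have no settled direction either. The difference of Ptpmt1 stayed between -2.35 and -2.03 and that of Lpgat1 between -2.43 and -2.03 when a line was left out. Signal over background was not available for single arrays, so faint genes such as Cds1 have no detection call.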
